A study of Saccharomyces cerevisiae with 12 samples.

Results

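The genes described here make and import pyrimidines in budding yeast (Saccharomyces cerevisiae): URA1 (YKL216W), URA2 (YJL130C), URA3 (YEL021W), URA4 (YLR420W), URA5 (YML106W), URA6 (YKL024C), URA7 (YBL039C), URA8 (YJR103W) and URA10 (YMR271C) of the synthesis pathway, and FUR4 (YBR021W), the uracil permease gene. They were taken by identifier, 10 of the 7127 features in the deposited table of read counts. Poly(A) RNA was sequenced in 12 libraries, 3 in each of 4 groups: the S10D-labelled strain with estradiol (E2), the same strain with ethanol (EtOH), the reference strain with E2, and the reference strain with EtOH, each for 3 hours. Both strains are labelled MATa, with CEN4, the centromere of chromosome IV, between lox sites marked by KanMX, and with a recombinase gene, written GDP-creEDB78:LEU2 in the S10D-labelled strain and GDP-creEBD78:LEU2 in the reference strain. It encodes Cre joined to the hormone-binding domain of an estrogen receptor, and estradiol lets it excise the DNA between lox sites. The number of clones behind each strain is not given in the sources used here. The S10D-labelled strain also carries hht2-hhf2::[HHT-S10D-HHFS]-URA3, a histone construct with URA3 as its marker, as well as 2 operator arrays, trp1::TetO:TRP1 and lys4::LacO:hphNT1, and the fluorescent repressors TetR-mRFP and his3::LacR-GFP:HIS3. Its label ends with the alleles bar1-delta-, Ade1 and leu2-x. The reference strain is labelled with deletions at HIS3, LEU2, URA3 and MET15 (MET17 in the annotation), of which ura3-delta-0 and met15-delta-0 are 2, the others being leu2-delta-0 and his3-delta-1.

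The strains therefore differ in URA3 itself, in the histone construct, in other markers and possibly elsewhere in the genome, and for a difference between strains these cannot be told apart. No strain whose CEN4 lacks lox sites is among the 12 libraries, so estradiol or Cre and the loss of CEN4 cannot be told apart either. The growth medium, and with it the supply of uracil, is not given in the sources used here, nor is the number of cultures behind the 3 libraries of each group, so p-values measure the spread between these libraries, which may be technical. CPM (counts-per-million values, scaled by the trimmed mean of M-values, TMM) are shares of a library: RNA per cell was not measured, and a change in some cells cannot be told apart from a change in all.

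Pyrimidine synthesis starts from glutamine, bicarbonate and aspartate. Ura2 joins carbamoyl phosphate to aspartate, Ura4 closes the ring to dihydroorotate, Ura1 oxidises it to orotate, Ura5 and its minor isozyme Ura10 attach the ribose phosphate, and Ura3 decarboxylates the product to UMP. Ura6 phosphorylates UMP, and Ura7 and its isozyme Ura8 turn UTP into CTP. UTP inhibits Ura2, the main point of control by the end product. Transcription of URA1, URA3, URA4 and URA10 is known to be activated by Ppr1, a zinc cluster protein that responds to the intermediates dihydroorotate and orotate. Cells without Ura3 cannot make UMP from orotate and need a pyrimidine from outside, such as uracil, which enters through Fur4.

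Ppr1 binds inverted CGG triplets separated by 6 bases. The motif CGGNNNNNNCCG, which reads the same on both strands, was searched from 250 bases before to 50 bases after the first base of each start codon in the R64 sequence. It was found in 3 of the 10 genes, URA1, URA4 and URA3, against 75 of 6026 genes with a full window (1.24%). The 75 include these 3, which are known Ppr1 targets, so the comparison is a description and no test. URA1 had 2 copies, starting 212 and 181 bases before the start codon, URA4 had 1 copy starting at 130 bases and URA3 1 copy starting at 152 bases. URA10, the other described Ppr1 target, had none up to 1000 bases before its start codon, and URA2 had 1 starting at 893 bases. The promoters of the 4 described targets are printed with the motif in capitals, because URA1 and URA4 had the widest strain differences of the 9 genes other than URA3, and URA10 is the target without the motif. A match describes letters only and is no measurement of binding.
URA1 promoter, chrXI:24965-25264, plus strand: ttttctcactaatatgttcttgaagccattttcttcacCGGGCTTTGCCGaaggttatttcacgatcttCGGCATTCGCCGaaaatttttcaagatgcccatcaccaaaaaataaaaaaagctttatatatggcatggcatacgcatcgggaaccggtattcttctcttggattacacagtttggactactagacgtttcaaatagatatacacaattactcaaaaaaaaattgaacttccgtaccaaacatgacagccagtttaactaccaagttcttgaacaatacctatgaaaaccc
URA4 promoter, chrXII:963535-963834, plus strand: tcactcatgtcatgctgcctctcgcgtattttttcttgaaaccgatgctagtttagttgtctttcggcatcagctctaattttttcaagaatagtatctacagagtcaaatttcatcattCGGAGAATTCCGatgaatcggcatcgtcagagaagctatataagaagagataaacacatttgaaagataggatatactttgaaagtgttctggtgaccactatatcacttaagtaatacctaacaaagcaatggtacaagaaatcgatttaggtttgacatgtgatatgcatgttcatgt
URA3 promoter, chrV:115917-116216, plus strand: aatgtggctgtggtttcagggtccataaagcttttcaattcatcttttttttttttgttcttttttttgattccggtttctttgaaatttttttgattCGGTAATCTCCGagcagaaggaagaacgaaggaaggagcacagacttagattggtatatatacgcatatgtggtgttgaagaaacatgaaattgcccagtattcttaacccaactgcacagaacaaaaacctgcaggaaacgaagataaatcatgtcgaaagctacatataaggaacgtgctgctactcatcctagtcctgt
URA10 promoter, chrXIII:807499-807798, minus strand: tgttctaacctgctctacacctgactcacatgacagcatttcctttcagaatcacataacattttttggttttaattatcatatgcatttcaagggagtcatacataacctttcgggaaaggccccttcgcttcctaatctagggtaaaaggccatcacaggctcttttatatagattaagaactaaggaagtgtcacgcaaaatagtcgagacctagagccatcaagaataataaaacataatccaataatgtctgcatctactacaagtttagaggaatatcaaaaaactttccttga

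**Figure D1:**
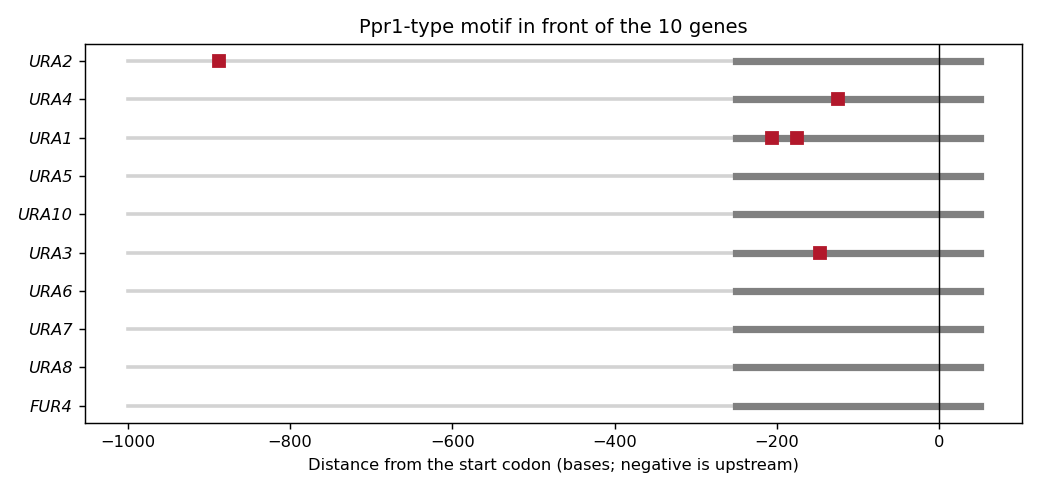
Places of the motif CGGNNNNNNCCG in front of the 10 genes. The x axis is the distance in bases from the start codon, thick grey lines are the window from 250 bases before to 50 after it, thin lines reach to 1000 bases before it, and red squares are motifs. Within the thick window URA1 holds 2 motifs, URA4 and URA3 hold 1 each and the other genes hold none.

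Libraries held 9362173 to 11806239 counts, and 5990 features passed a filter on low counts (edgeR's filterByExpr, minimum count 10). The 10 genes together held 0.185% to 0.1985% of the counts in S10D-labelled libraries and 0.199% to 0.234% in reference libraries. EtOH replicate 3 of the reference strain stood apart from its group: chi-square per degree of freedom was 30.5 and 31.6 in its pairs with replicates 1 and 2, against 1.38 to 4.88 in the other 10 pairs within groups. Summed counts of the 5 fixed markers of a cells were 16790 to 37402 per library, those of the 4 alpha markers 460 to 816, and no marker was at 0 throughout. Each a marker had lower CPM in every S10D-labelled library than in any reference library. For STE6 these were 512.4 to 572.7 against 635.0 to 815.3, and for MFA1 73.5 to 85.4 against 170.0 to 356.3. Most alpha counts were of SAG1 (404 to 679 per library). In E2 the S10D-labelled strain was also lower in MF(ALPHA)1, STE3 and SAG1 (log2 fold changes -1.45, -0.67 and -0.26, edgeR adjusted p under 0.05). In EtOH only SAG1 of these was called lower (-0.18). Of all tested genes 27.3% were called lower in E2 and 31.4% in EtOH, so a lower level is not particular to the a markers. How many of all genes separate the strains without overlap was not counted.

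URA3 was read first, because it checks the labels. In the S10D-labelled strain it had 1345, 1529 and 1362 counts in E2 libraries and 1401, 1212 and 1305 in EtOH libraries. The reference strain, labelled with its deletion, had 5, 1 and 0 counts in E2 and 1, 2 and 1 in EtOH. Pooled over 3 libraries, URA3 took 131 CPM, here without scaling, in S10D-labelled EtOH libraries (95% interval 127 to 135) and 0.124 in reference EtOH libraries (0.0337 to 0.316), a ratio of 1060 (95% interval 413 to 3890). In E2 the pooled values were 140 CPM (135 to 144) in the S10D-labelled strain and 0.175 (0.0643 to 0.381) in the reference strain, a ratio of 796 (366 to 2170). These intervals are exact and cover counting error alone; PCR reads are not independent molecules. URA3 passed the filter on low counts through the S10D-labelled libraries alone and its strain difference is given by the labels, so it is left out of the counts of changed genes, which are over the 9 other genes. The counts do not show whether the URA3 reads come from its own locus (chromosome V 116167 to 116970, build R64) or from the marker at HHT2 and HHF2.

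Beside the URA3 locus, the nearest gene on each side was called between the strains. TIM9, which encodes a chaperone of the mitochondrial intermembrane space and starts downstream of URA3 on the same strand (chromosome V 117211 to 117474), had 172.5 ± 9.03 CPM in S10D-labelled E2 libraries and 68.4 ± 1.93 in reference E2 libraries (SD, n = 3 each), and 168.3 ± 4.79 against 77.4 ± 12.5 in EtOH. Of the 5 genes on either side, 2 were higher, 2 lower and 1 not called in E2, and 3 higher, 1 lower and 1 not called in EtOH, where 54.3% (E2) and 58.1% (EtOH) of all tested genes were called, so these counts do not set the neighbours apart. TIM9 was higher in the S10D-labelled strain by a log2 fold change of 1.33 ± 0.09 in E2 and 1.12 ± 0.09 in EtOH (SE; edgeR quasi-likelihood test, Benjamini-Hochberg adjusted p = 1.37e-08 and 7.90e-08). GEA2, an exchange factor gene of Golgi traffic that ends upstream of URA3 (V 111421 to 115800), was lower there, with log2 fold changes of -0.47 ± 0.04 in E2 and -0.36 ± 0.04 in EtOH (edgeR adjusted p = 2.35e-07 and 3.13e-06).

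Each gene has 1 coding exon, and none overlaps another gene of the RefSeq R64 annotation. The 1080 counted identifiers that did not match it were not checked for overlap. URA2 lies at X 165723 to 172367, URA4 at XII 963785 to 964879, URA1 at XI 25215 to 26159, URA5 at XIII 56773 to 57453 and URA10 at XIII 806865 to 807548. URA6 lies at XI 392526 to 393140, URA7 at II 143989 to 145728, URA8 at X 620754 to 622490 and FUR4 at II 281443 to 283344. None lies on chromosome IV. The coding sequences of the isozyme pairs are 69.5% identical for URA5 and URA10, with a longest shared run of 11 bases, and 72.2% identical for URA7 and URA8, with a longest shared run of 17 bases.

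Per kilobase of coding length, the order of levels differed between the strains. In the S10D-labelled strain URA5 stood highest (412.7 ± 3.01 CPM per kb in E2 and 405.2 ± 19.8 in EtOH, SD, n = 3), followed by URA6, URA3, URA1, URA2, URA7, URA8 and URA4, in both conditions. In the reference strain URA1 stood highest (452.3 ± 9.30 CPM per kb in E2 and 710.0 ± 25.7 in EtOH), followed by URA5, URA6, URA4, URA7, URA2 and URA8. URA10 and FUR4 were the lowest of the 10 in the S10D-labelled strain, at 20.4 to 29.2 CPM per kb, and the lowest but for URA3 in the reference strain, at 31.8 to 40.7. The median tested gene with a known length had 62.6 to 64.2 CPM per kb in the 4 groups (5656 genes). Neighbours in this order overlapped between libraries in few places: URA10 and FUR4 in S10D-labelled EtOH libraries, and URA2 with URA8 and FUR4 with URA10 in both reference groups.

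**Figure D2:**
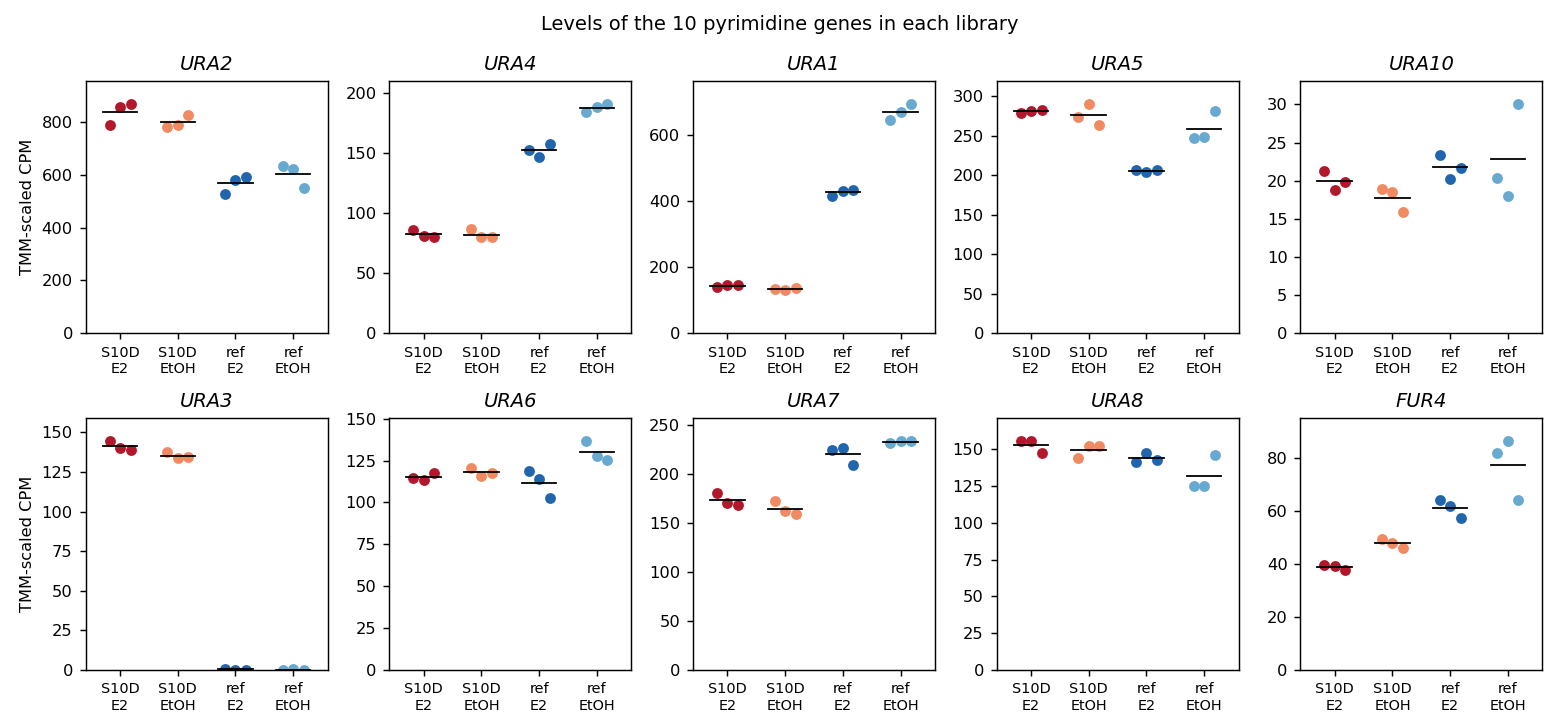
TMM-scaled CPM of the 10 genes in every library. Panels follow the pathway, each dot is a library, black lines are means of 3, and columns are the 4 groups (S10D is the S10D-labelled strain, ref the reference strain). URA1 and URA4 are lower in all 6 S10D-labelled libraries than in any reference library, while URA2 is higher in all 6.

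The comparison of the strains asks how expression differs in the strain that carries the histone construct. The 2 enzymes in the middle of the pathway, dihydroorotase (URA4) and dihydroorotate dehydrogenase (URA1), were lower in the S10D-labelled strain, 1.85-fold (E2) and 2.29-fold (EtOH) for URA4 and 2.99-fold and 5.04-fold for URA1, while URA2 at the start of the pathway was higher. The major CTP synthase gene URA7 and the permease gene FUR4 were lower too. Of the 9 genes, 2 were higher, 5 lower and 2 not called in EtOH, against 26.7% of all 5990 tested genes higher and 31.4% lower. In E2, 2 were higher, 4 lower and 3 not called, against 27.0% higher and 27.3% lower among all genes. The share called, 7 of 9 in EtOH and 6 of 9 in E2, stands beside 58.1% and 54.3% of all genes, so the number of calls does not set these genes apart. Their median log2 fold change was -0.13 in E2 and -0.37 in EtOH, against -0.01 and -0.03 for all genes tested. Both medians are the values of URA10, which was not called in either condition. In EtOH URA10 stood at -0.11 without EtOH replicate 3 of the reference strain. Called means an edgeR p under 0.05 after Benjamini-Hochberg adjustment over the 5990 tested features.

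URA1, whose product makes orotate in the cytosol, had 138.8, 144.6 and 144.9 CPM in S10D-labelled E2 libraries, against 417.3, 431.8 and 433.2 in reference E2 libraries. With EtOH it had 134.1, 129.3 and 135.5 CPM in the S10D-labelled strain, against 646.6, 670.9 and 695.3 in the reference strain. No range overlaps another: S10D-labelled EtOH is lowest, followed by S10D-labelled E2, reference E2 and reference EtOH. URA1 was lower in the S10D-labelled strain, with a log2 fold change of -1.58 ± 0.04 in E2 (2.99-fold lower, edgeR adjusted p = 7.68e-13) and -2.33 ± 0.04 in EtOH (5.04-fold lower, adjusted p = 9.98e-15). In EtOH its fold change ranked 69 from the lowest of the 5990 tested genes.

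URA4, the dihydroorotase gene, had 85.4, 80.4 and 80.3 CPM in S10D-labelled E2 libraries, against 152.2, 146.8 and 156.9 in reference E2 libraries. Its EtOH values were 86.2, 79.6 and 80.0 CPM in the S10D-labelled strain, against 183.6, 188.2 and 190.6 in the reference strain. Both S10D-labelled groups lie below reference E2, which lies below reference EtOH. Its log2 fold change was -0.89 ± 0.05 in E2 (1.85-fold lower, edgeR adjusted p = 1.97e-09) and -1.19 ± 0.05 in EtOH (2.29-fold lower, adjusted p = 5.59e-11). The ratio of URA1 to URA4 per kilobase was 2.02 ± 0.12 and 1.88 ± 0.08 in the S10D-labelled strain in E2 and EtOH, against 3.26 ± 0.13 and 4.15 ± 0.074 in the reference strain (SD, n = 3 each).

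The other 72 genes of the table with the same motif in this window, 70 of them tested, moved in both directions. In EtOH 19 were higher, 26 lower and 25 not called in the S10D-labelled strain, with a median log2 fold change of -0.05, against 26.7% higher and 31.4% lower among all genes and a median of -0.03. In E2 18 were higher, 24 lower and 28 not called, with a median of 0.01, against 27.0% higher and 27.3% lower and a median of -0.01. URA10 (YMR271C), the Ppr1 target without the motif, had 20.0 ± 1.29 CPM in S10D-labelled E2 libraries and 21.7 ± 1.60 in reference E2 libraries. In EtOH it had 18.9, 18.6 and 15.8 CPM against 20.4, 17.9 and 30.1, so that the groups overlap. Its log2 fold change was -0.13 in E2 (95% interval -0.49 to 0.24; edgeR adjusted p = 0.52) and -0.37 in EtOH (-0.74 to 0.00; adjusted p = 0.0662). Without EtOH replicate 1 or replicate 2 of the reference strain the EtOH difference was called (-0.44 and -0.51), and without replicate 3 it shrank to -0.11.

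The first and the later steps moved less or the other way. URA2, whose product is the large enzyme of the first 2 reactions, had 790.6, 857.8 and 870.3 CPM in S10D-labelled E2 libraries, against 528.4, 582.8 and 593.6 in reference E2 libraries. Its EtOH values were 782.2, 789.9 and 829.7 CPM in the S10D-labelled strain, against 633.9, 624.3 and 552.1 in the reference strain. The strains did not overlap in either condition, and URA2 was higher in the S10D-labelled strain by 0.56 ± 0.06 in E2 and 0.41 ± 0.06 in EtOH (log2; edgeR adjusted p = 3.21e-06 and 6.22e-05). URA5, the main orotate phosphoribosyltransferase gene, was higher in E2 (281.1 ± 2.05 against 205.8 ± 1.11 CPM; 0.45 ± 0.05, edgeR adjusted p = 7.06e-06). In EtOH it had 275.9 ± 13.5 CPM against 258.7 ± 19.2, and its log2 fold change of 0.09 ± 0.05 was not called (edgeR adjusted p = 0.15), but was called at 0.16 without EtOH replicate 3 of the reference strain (edgeR adjusted p = 0.00137). The ratio of URA5 to URA10 per kilobase was 14.2 ± 0.99 and 15.7 ± 1.1 in the S10D-labelled strain in E2 and EtOH, and 9.54 ± 0.66 and 11.8 ± 2.3 in the reference strain.

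The CTP synthase genes parted. URA7, the major one, had 180.2, 170.2 and 167.9 CPM in S10D-labelled E2 libraries, against 224.4, 226.4 and 208.5 in reference E2 libraries, and was lower, with a log2 fold change of -0.35 ± 0.05 ( edgeR adjusted p = 3.41e-05). Its EtOH values were 171.9, 161.6 and 158.5 CPM against 231.5, 233.7 and 233.0, a log2 fold change of -0.50 ± 0.05 (edgeR adjusted p = 7.32e-07). URA8, the minor one, had 153.0 ± 4.66 CPM against 144.0 ± 3.19 in E2, a log2 fold change of 0.09 that was not called (95% interval -0.05 to 0.22; edgeR adjusted p = 0.222), and was called without EtOH replicate 3 of the reference strain (adjusted p = 0.0472). In EtOH it was higher by 0.18 ± 0.06 (edgeR adjusted p = 0.0193), with groups that overlap, and this call was lost without replicate 1 or 2 of the reference strain (0.14 each) or without replicate 2 or 3 of the S10D-labelled strain (0.17 and 0.16), and in the fit of the 6 EtOH libraries alone (0.20, edgeR adjusted p = 0.054). The ratio of URA7 to URA8 per kilobase was 1.13 ± 0.031 and 1.1 ± 0.083 in the S10D-labelled strain in E2 and EtOH, and 1.52 ± 0.061 and 1.77 ± 0.15 in the reference strain. URA6, the UMP kinase gene, had 115.4 ± 2.03 CPM against 111.9 ± 8.14 in E2, a log2 fold change of 0.04 (95% interval -0.08 to 0.17; edgeR adjusted p = 0.524). In EtOH it had 118.0 ± 2.32 against 130.1 ± 6.00 CPM, a log2 fold change of -0.14 ± 0.06 (edgeR adjusted p = 0.045) whose call was lost in 15 of 18 alternatives (adjusted p up to 0.16), among them each of the 12 libraries left out in turn other than EtOH replicate 3 and E2 replicate 3 of the reference strain.

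FUR4, the permease gene, had 39.7, 39.1 and 37.6 CPM in S10D-labelled E2 libraries, against 64.1, 61.9 and 57.3 in reference E2 libraries. Its EtOH values were 49.4, 48.0 and 45.9 CPM in the S10D-labelled strain, against 81.9, 86.5 and 64.01 in the reference strain. All S10D-labelled values lie below all reference values. FUR4 was lower in the S10D-labelled strain, with log2 fold changes of -0.65 ± 0.10 in E2 and -0.70 ± 0.09 in EtOH (edgeR adjusted p = 5.36e-05 and 2.07e-05).

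**Figure D3:**
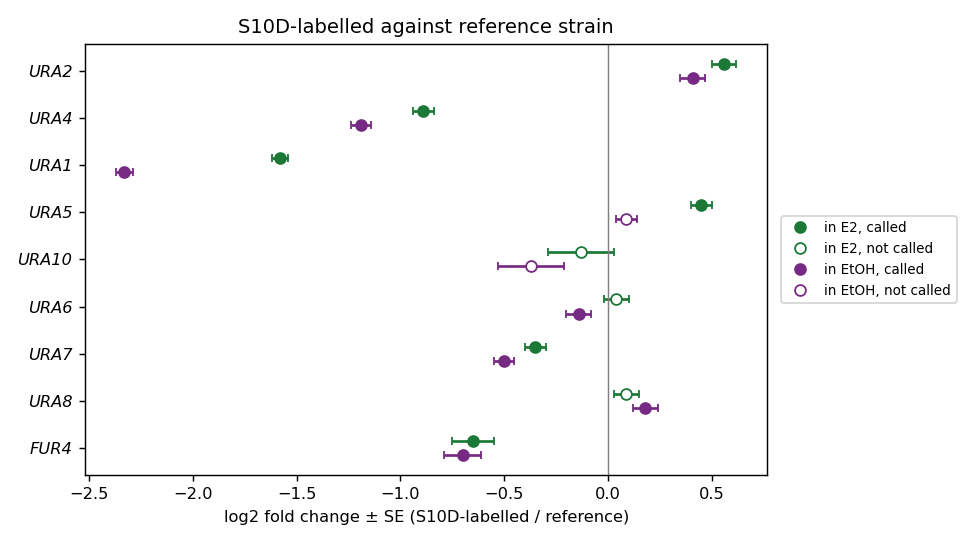
Log2 fold change of the S10D-labelled against the reference strain for the 9 genes other than URA3, with the SE of the fit as bars. Green is E2 and purple EtOH, filled dots are called and open dots not called. URA1 lies lowest (-1.58 in E2 and -2.33 in EtOH), URA4 next, and URA2 lies above 0 in both.

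The strain comparisons and the responses share libraries: the reference EtOH libraries, for example, stand in both the EtOH strain difference and the reference response. The response to estradiol asks what changes when CEN4 can be excised. In the reference strain URA1, URA4, URA5, URA6 and FUR4 fell and none of the 9 genes rose; in the S10D-labelled strain none was called. Of the 9 genes, 0 were higher, 5 lower and 4 not called in the reference strain, against 22.4% of all tested genes higher and 22.2% lower (44.6% called), with a median log2 fold change of -0.22 against 0.00. In the S10D-labelled strain edgeR and DESeq2 called 0 of the 9, with 2 at an unadjusted p under 0.05 in edgeR, against 4.56% of all genes called (2.42% higher and 2.14% lower; 145 and 128 genes, or 116 and 165 with DESeq2 size factors). The 4 group means shared one estimate of the spread, and the counts moved with it, for these genes and for all. In the S10D-labelled strain 2 of the 9 and 1370 of all genes were called in a fit of its 6 libraries alone, and 1 of the 9 and 991 of all genes without EtOH replicate 3 of the reference strain, against 273 of all genes in the reported fit. In the reference strain 3 of the 9 and 1843 of all genes were called in a fit of its 6 libraries alone, and 7 of the 9 (1 higher, 6 lower) and 3133 of all genes without that library, against 2671 of all genes in the reported fit.

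URA1 had the lowest log2 fold change of the 9 in the reference strain, -0.65 ± 0.04 (1.57-fold lower; edgeR adjusted p = 4.55e-08), and its E2 and EtOH libraries do not overlap. URA5 (-0.33 ± 0.05) and URA4 (-0.30 ± 0.05) fell (edgeR adjusted p = 0.000189 and 0.00014), also without overlap. FUR4 fell (-0.34 ± 0.09; edgeR adjusted p = 0.00734), though EtOH replicate 3, at 64.01 CPM, lies within the range of the E2 libraries, and FUR4 stood at -0.46 without it. URA6 fell (-0.22 ± 0.06) to 111.9 ± 8.14 CPM in E2 against 130.1 ± 6.00 in EtOH (edgeR adjusted p = 0.00604). The calls of URA6 and FUR4 were lost in the fit of 6 libraries (edgeR adjusted p = 0.0508 and 0.0531). URA2 (-0.09, 95% interval -0.23 to 0.06), URA7 (-0.08, -0.19 to 0.03), URA8 (0.12, -0.01 to 0.26) and URA10 (-0.07, -0.43 to 0.28) were not called. EtOH replicate 3 decided some of these: without it URA2 stood at -0.15 and URA8 at 0.20, both called (edgeR adjusted p = 0.0104 and 0.000402), and URA10 at 0.18, not called. In that library URA10 had 30.1 CPM against 20.4 and 17.9 in the other EtOH libraries, and URA8 had 146.1 against 125.2 and 124.9.

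In the S10D-labelled strain the log2 fold changes of the genes other than FUR4 lay between -0.03 (URA6) and 0.17 (URA10). URA1 stood at 0.10 (95% interval 0.00 to 0.20; edgeR adjusted p = 0.24), and its E2 libraries were all above its EtOH libraries. FUR4 stood at -0.30 (-0.53 to -0.07; edgeR adjusted p = 0.112), with all E2 libraries below all EtOH libraries, and was called without EtOH replicate 3 of the reference strain (edgeR adjusted p = 0.00114) and in the fit of 6 libraries (adjusted p = 0.000455). URA1 was also called in that fit of 6 libraries (edgeR adjusted p = 0.0493).

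The test of the difference between these responses (S10D-labelled minus reference) called URA1 (0.75 ± 0.06, edgeR adjusted p = 1.81e-06), URA5 (0.36 ± 0.07, adjusted p = 0.00397) and URA4 (0.30 ± 0.07, adjusted p = 0.00683). These are 3 of 9 genes higher and none lower, against 9.82% and 10.6% of all tested genes (20.4% called), and 5 of the 9 had an unadjusted p under 0.05. The responses of FUR4 differed by 0.04 (95% interval -0.27 to 0.35; edgeR adjusted p = 0.864), and those of URA10 by 0.24 (-0.28 to 0.76). Without EtOH replicate 3 of the reference strain 5 genes were higher and 1 lower, URA2 (0.22) and URA6 (0.21) being added above 0 and URA8 (-0.17) below it, while the count over all genes was 1994 (992 higher, 1002 lower) against 1224 with all libraries.

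**Figure D4:**
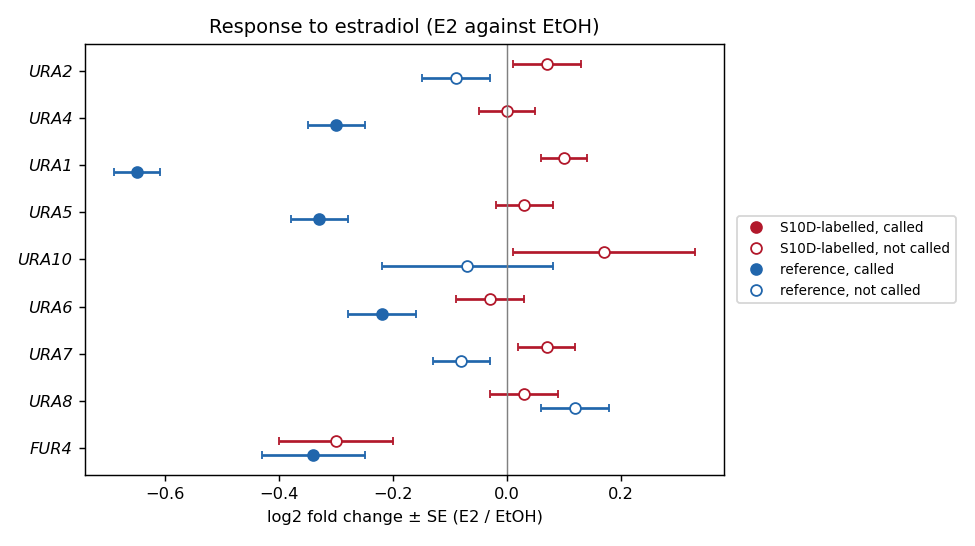
Log2 fold change of E2 against EtOH for the 9 genes other than URA3, with the SE of the fit as bars. Red is the S10D-labelled and blue the reference strain, filled dots are called and open dots not called. URA1 (-0.65 in the reference strain, 0.10 in the S10D-labelled) shows the widest gap, and FUR4 lies near -0.3 in both.

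A list of 18 other pyrimidine genes covers the regulator, salvage, transport, nucleotide conversion and CPA1, which acts in the making of carbamoyl phosphate for arginine. In the S10D-labelled against the reference strain, 3 were higher, 8 lower and 7 not called in E2, and 4 higher, 8 lower and 6 not called in EtOH, with medians of -0.12 and -0.21. Of all tested genes 54.3% were called in E2 and 58.1% in EtOH, with medians of -0.01 and -0.03, so the number of calls does not set the 18 apart. CPA1 showed the widest difference of the 18 in both conditions. It had 438.1 ± 8.18 CPM in S10D-labelled E2 libraries and 173.9 ± 0.543 in reference E2 libraries, and 508.8 ± 6.44 against 109.2 ± 9.23 in EtOH. Its log2 fold change was 1.33 ± 0.05 in E2 and 2.22 ± 0.05 in EtOH (edgeR adjusted p = 3.74e-11 and 1.49e-13). FCY21 and FCY22, relatives of the purine-cytosine permease gene FCY2, were higher in EtOH (1.06 ± 0.09 and 1.59 ± 0.20). Only FCY21 of this pair was called in E2 (0.55 ± 0.09, against 0.22 ± 0.16), the 2 genes share a run of 78 bases so that reads may be split between them, and FCY22 had 15 to 67 counts per library. FUI1, the uridine permease gene, was lower in E2 (-0.46 ± 0.13) and EtOH (-0.86 ± 0.13), and YNK1, the nucleoside diphosphate kinase gene, was also lower in both (-0.52 ± 0.10 and -0.44 ± 0.10). PHM8, a nucleotide phosphatase gene, was lower in E2 (-0.54 ± 0.13) and stood at 0.08 ± 0.14 in EtOH.

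PPR1, the regulator gene, had 59.4 ± 2.17 CPM in S10D-labelled E2 libraries and 78.5 ± 5.51 in reference E2 libraries, and was lower, with a log2 fold change of -0.40 ± 0.09 (edgeR adjusted p = 0.00146). In EtOH it had 61.2, 60.5 and 55.5 CPM against 73.8, 63.9 and 55.5, a log2 fold change of -0.12 (95% interval -0.33 to 0.08; edgeR adjusted p = 0.255), which was -0.22 and called without EtOH replicate 3 of the reference strain (adjusted p = 0.00698).

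**Figure D5:**
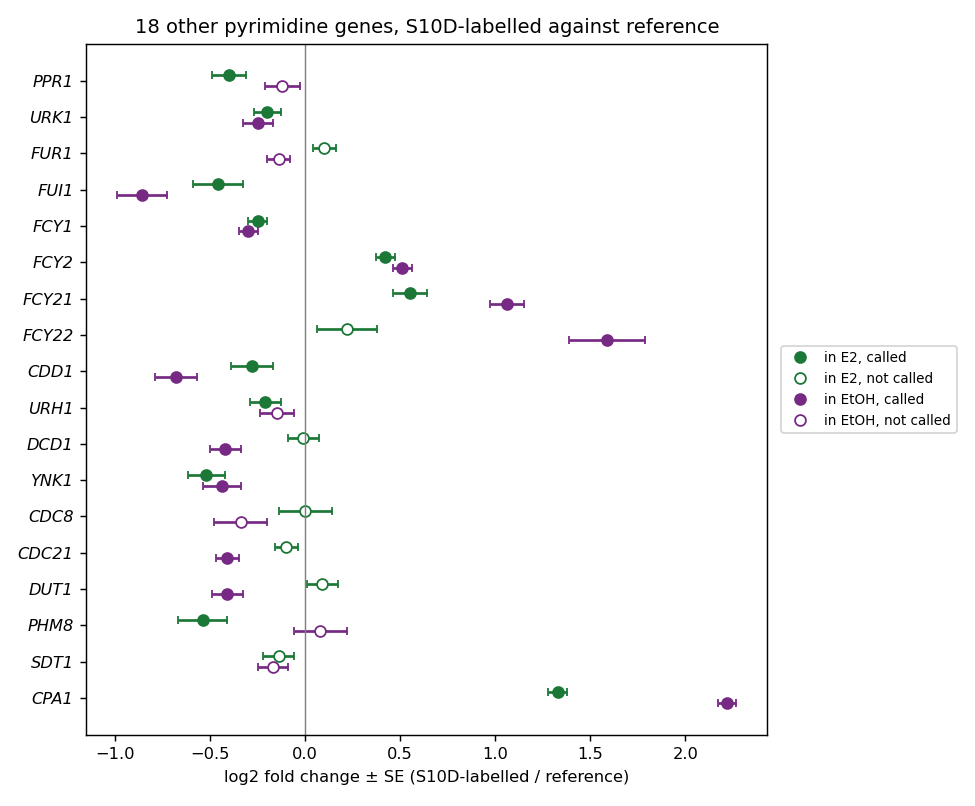
Log2 fold change of the S10D-labelled against the reference strain for the 18 other pyrimidine genes, with the SE of the fit as bars. Green is E2 and purple EtOH, filled dots are called and open dots not called. CPA1 lies highest, at 1.33 in E2 and 2.22 in EtOH, and FUI1 in EtOH lies lowest at -0.86.

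In response to E2, 6 of the 18 rose, 6 fell and 6 were not called in the reference strain, with a median of -0.01, against 44.6% called and a median of 0.00 among all genes. FCY22 rose by 1.40 ± 0.20, PHM8 by 1.15 ± 0.13 and CPA1 by 0.67 ± 0.05, and FUI1 fell, with a log2 fold change of -0.73 ± 0.13 (edgeR adjusted p = 6.54e-05, 2.30e-05, 3.57e-07 and 0.000601). PPR1 rose by 0.29 ± 0.09 (edgeR adjusted p = 0.0154), a call lost without E2 replicate 1 (0.24, adjusted p = 0.0669) and in the fit of 6 libraries (adjusted p = 0.0724). In the S10D-labelled strain 1 rose, 1 fell and 16 were not called, against 4.56% of all genes called. PHM8 rose by 0.53 ± 0.13, while CPA1 (-0.22 ± 0.05) fell (edgeR adjusted p = 0.047 and 0.0268). FUI1 (-0.33) and the uridine nucleosidase gene URH1 (0.28) were called there only without EtOH replicate 3 of the reference strain or in the fit of 6 libraries. The count of called genes was 6 without that library, 1 without any reference E2 library, and 0 without any single library of the S10D-labelled strain. The calls of PHM8 and CPA1 were lost without each of these 6 libraries (edgeR adjusted p up to 0.184 and 0.121), and that of PHM8 also without any reference E2 library (adjusted p up to 0.0734). The test of the difference between responses (S10D-labelled minus reference) called 3 of the 18 above 0 and 4 below 0. The other 11 were not called, against 20.4% of all genes called. The 4 below 0 were CPA1 (-0.89 ± 0.07), FCY22 (-1.37 ± 0.26), FCY21 (-0.51 ± 0.12) and PHM8 (-0.62 ± 0.19). PHM8 had an edgeR adjusted p of 0.0365 that rose to 0.0912 without S10D-labelled EtOH replicate 3 and missed the threshold in 9 of 17 alternatives.

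As a description of likeness, genes outside the 10 were ranked by Pearson's r with URA1, URA4 and FUR4 over log2 CPM of all 12 libraries. The first 3 by this pooled r were TIS11, PLB2 and MTD1 for URA1, MTD1, HHT2 and SHM2 for URA4, and CLN1, RAD53 and CPR4 for FUR4. HHT2 is altered by the histone construct in the S10D-labelled strain, so its strain difference cannot be told apart from that alteration. The strains form separate clusters, so the pooled r rests largely on the strain difference, and 478 of 5980 genes reached an r over 0.9 with URA1. An r within a strain still spans its E2 and EtOH groups. These do not overlap for URA1 in either strain, for URA4 in the reference strain, or for FUR4 in the S10D-labelled strain. There r includes the difference between E2 and EtOH. Within the 6 S10D-labelled libraries r with URA1 was 0.763 for TIS11, -0.29 for PLB2 and -0.04 for MTD1, against 0.981, 0.979 and 0.997 within the 6 reference libraries. For URA4 it was 0.854 for MTD1, 0.607 for HHT2 and 0.172 for SHM2 within the S10D-labelled libraries, against 0.987, 0.981 and 0.973 within the reference libraries. For FUR4 it was 0.992 for CLN1, 0.881 for RAD53 and 0.962 for CPR4 within the S10D-labelled libraries, against 0.961, 0.959 and 0.932.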

How the data were processed

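The authors deposited raw read counts per annotated feature, with a column per library, from libraries that keep the strand (Illumina Stranded mRNA), per the labels' protocols. Per the submitters' processing notes, STAR 2.5.3a and HTSeq 0.6.1p1 were used, with cutadapt and bcl2fastq, on the builds R64 and sacCer3; counting mode and strand setting are not given in the sources used here. Of 7127 identifiers, 6047 matched a locus tag of the RefSeq R64 annotation, which gave symbols, positions and promoter sequences.

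Features kept by filterByExpr (minimum count 10, minimum total count 15) were scaled by TMM and tested with edgeR 4.0.16 in R 4.3.3 (quasi-likelihood, robust, 2-sided) as 4 group means over 12 libraries, with 8 residual degrees of freedom and a common biological coefficient of variation of 6.31%. The SE is the absolute log2 fold change divided by the square root of F, and its 95% interval uses 8 degrees of freedom. CPM are TMM-scaled over tested features. Alternatives were DESeq2 1.42.0, its size factors within edgeR, leaving out the filter or requiring 10 CPM on average, a replicate block, fitting only the 6 libraries of a comparison, and omitting each library in turn. The code was tested on simulated data. Named genes were the 10 genes, PPR1, the 4 widest fold changes of the other list in each comparison, the neighbours of URA3 and the 3 closest genes to URA1, URA4 and FUR4. A gene of the other list is not reported here, and its counts are over the 18 that remain. All genes and lists were chosen with earlier results of these data known. The motif search and the alternatives for the other list were chosen once values were known.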

Additional observations from a re-analysis of the deposited data

Results flagged for a closer look

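The responses to estradiol of 7 named genes differed between the strains by the edgeR test of the difference (S10D-labelled minus reference, log2). Above 0 were URA1 at 0.75, URA5 at 0.36 and URA4 at 0.30. Below 0 were FCY22 at -1.37, CPA1 at -0.89, PHM8 at -0.62 and FCY21 at -0.51. Of the 18 other pyrimidine genes, 3 that are not named here were called above 0. URA1, URA4 and URA5 kept this call in all 17 alternatives run, as did CPA1 and FCY21, and FCY22 in the 16 in which it was tested. Groups of 3 libraries are too small for a test of single libraries.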

How the results depend on the processing

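The 45 log2 fold changes of the 9 genes other than URA3 were each recomputed under 18 alternatives, or 17 for the difference of responses. Of the 801 values obtained, 749 kept direction and call, 22 lost a call, 12 gained one and 18 changed sign. The cause was not tested. In the fit of the 6 libraries compared, 3 of the 9 genes were called for the reference response to E2, 2 for the S10D-labelled response, and for the S10D-labelled response also 6 of the other pyrimidine genes and 1370 of all genes. With 1 library left out, the counts for the 9 genes ranged from 0 to 1 for the S10D-labelled response and from 3 to 6 for the difference of responses. For the reference response they ranged from 5 to 7, and for the strain difference from 6 to 7 in E2 and 5 to 8 in EtOH. For the S10D-labelled response the other pyrimidine genes ranged from 0 to 6 (2 in the reported fit, 1 with DESeq2 size factors or no filter) and all genes from 102 to 991, and for the difference all genes ranged from 906 to 1994. Changes of sign were of values not called. The response of URA4 in the S10D-labelled strain was -0.01 with DESeq2 size factors and with DESeq2, 0 with 6 libraries and -0.03 to 0.04 with 1 library left out. With 1 library left out, the reference response of URA10 ranged from -0.22 to 0.18, the S10D-labelled response of URA5 from -0.01 to 0.06, the difference of responses of URA10 from -0.02 to 0.39 and of FUR4 from -0.04 to 0.16, and the E2 strain difference of URA6 from 0 to 0.10. The S10D-labelled response of PPR1 was -0.01 with DESeq2 size factors and with DESeq2, and -0.04 to 0.03 with 1 library left out. The replicate block changed none of the calls of the 9 genes (5, 0 and 3 for both responses and their difference, 6 and 7 for the strains in E2 and EtOH). Of 18 pairs of libraries with the same number in different groups, deviations from group means correlated at over 0.1 in 1 (-0.07 to 0.126). Among 36 pairs with different numbers, 0 did (-0.111 to 0.075). Between EtOH and E2 of a strain, same-number values were 0.087, 0.071 and 0.002 (reference) and 0.068, 0.126 and -0.002 (S10D-labelled). Different-number values there reached 0.034 at most. Such small values from few pairs cannot decide whether the numbers pair the libraries. Counts were low for URA3 in the reference strain (0 to 5 per library), FCY22 (15 to 67) and URA10 (154 to 348), which limits the precision of their values.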
